A study of Mus musculus with 6 samples.

Results

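The serpins form a family of proteins that share a common fold, most of which block serine proteases. The members described here were all genes whose single symbol in the platform annotation was Serpin followed by a clade letter from a to i and a number. Of 18193 annotated genes on the arrays, 40 met that rule, with 14 in clade a, 18 in clade b and 8 in clades c, d, f, g, h and i. The annotation used here gave 0 clade e genes, so the comparison of clades covers a, b and the others, and clade e was not analysed here. Each gene was represented by its probe set, a group of short probes for 1 transcript, with the highest mean intensity over the 6 arrays.

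The RNA came from kidneys of male FVB/N mice aged 6 to 8 weeks and weighing 22 to 26 g. Blood flow to 1 kidney was stopped with a microclamp on the renal pedicle for 60 or 45 min, or for 0 min in the kidneys used as controls, and the kidneys were taken at day 3 or day 1 after reperfusion. All mice, controls included, had pentobarbital anaesthesia and a flank incision on a heated table, and the unilateral clamp left the other kidney in place. Each of the 6 combinations of clamp time and day had 1 Affymetrix array, so no value has a replicate array or an SD, and the labels do not say whether an array held RNA of 1 animal or of several.

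A serpin carries an exposed loop that its target protease cuts as if it were a substrate. The cut loop then folds into the body of the serpin and drags the bound protease along, which distorts the protease and leaves both molecules spent. Extracellular serpins govern clotting, clot breakdown, complement and the proteases of neutrophils, while clade b serpins mostly act inside cells against granzymes and lysosomal proteases. A few members, such as the collagen chaperone and the hormone carriers, have lost inhibition and use the same fold for other work. In a kidney whose circulation has been stopped and restored, fibrin, plasminogen activation, complement and leukocyte proteases are among the systems that serpins control.

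A member was tested where its mean log2 of intensity plus 16 reached log2 6.01, the 40th percentile of all probe sets without controls, which corresponds to an intensity of 48.4. Of the 40 serpins, 20 passed, comprising 5 of 14 in clade a, 8 of 18 in clade b and 7 of 8 in the other clades, beside 12734 of all 18193 genes. All arrays had the same trimmed mean intensity of 500.003, and their medians lay between 81.1 and 95.0. The log2 ratio of 3' to 5' actin control probe sets, which rises as RNA degrades, was 0.49 in the 60 min day 3 kidney, 0.77 in the 0 min day 3 kidney and 1.03 to 1.12 on the other 4 arrays. The Gapdh ratio was -0.37 to -0.33 on the day 3 arrays and -0.23 to -0.20 on the day 1 arrays, with no overlap. The part of these differences in RNA quality in the results was not tested. Markers of the proximal tubule, the main cell type of the kidney cortex, passed the filter in 8 of 8 cases.

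Serpin transcripts stood mostly higher in clamped than in 0 min kidneys. Of the 20 tested members, 13 were higher in all 4 clamped arrays than in the 0 min array of the same day, beside 16.7% of all genes tested. Serpina6 and Serpinb2, among the 13, passed the filter through clamped arrays in which they were higher. A dimmer probe set each of Serpinb1a, Serpinb8 and Serpinf1 did not hold this pattern, while those of Serpinb9 and Serpinh1 did. Of the dimmer sets of Serpini1, the one reading 64.5 to 98.9 held it and the one at or under 14.6 did not. The antithrombin Serpinc1 and the antiplasmin Serpinf2 were lower in all 4, a pattern held by 15.6% of all genes. Without regard to day, all 4 clamped arrays lay above both 0 min arrays for 9 members, beside 10.9% of all genes. These 9 were Serpina10, Serpina3n, Serpinb1a, Serpinb2, Serpinb6a, Serpinb6b, Serpinb8, Serpinb9 and Serpinh1. On their dimmer probe sets Serpinb1a, Serpinb8 and Serpinb9 did not show this separation, while Serpinh1 did. All 4 clamped arrays lay below both 0 min arrays for 0 members, beside 8.94% of all genes.

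**Figure D1:**
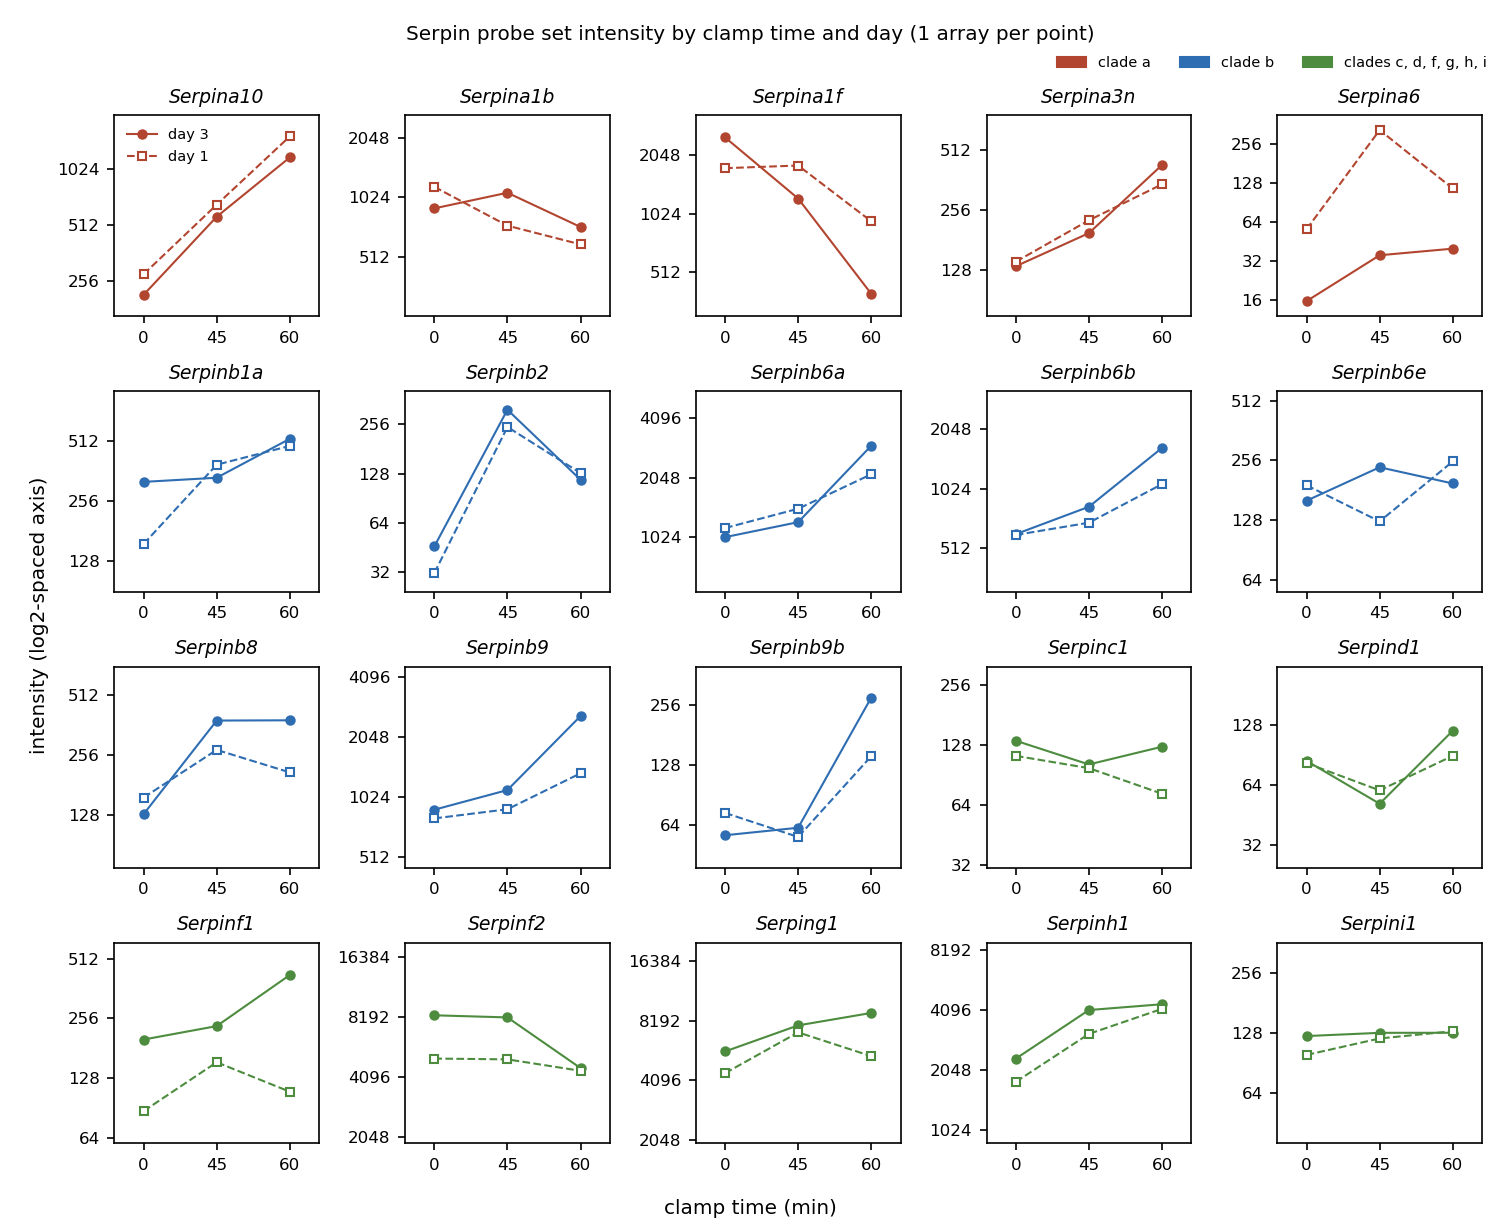
Intensity (vertical axis, log2 spacing) of the 20 tested serpins against clamp time in min (horizontal axis), with filled circles and solid lines for day 3, open squares and dashed lines for day 1, and 1 array per point. Serpina10 climbs with clamp time on both days, Serpinb2 peaks at 45 min on both days, and Serpina1f is lowest at 60 min on both days.

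Differences over both days came from a limma fit of clamp time plus day to log2 of intensity plus 16 on all 6 arrays. With 1 array per combination, its spread is the departure of the arrays from additive effects, on 2 residual degrees of freedom. In that fit the mean of 60 and 45 min minus 0 min gave a median log2 difference of 0.67 over the 20 members and of 0.01 over all genes. At a Benjamini-Hochberg adjusted p under 0.05, 0 members and 0 of 12734 genes (0%) were called. At an unadjusted p under 0.05 from limma, 12 of 20 members passed, 11 higher and 1 lower, beside 14.6% of all genes, of which 1217 were higher and 641 lower. The lowest adjusted p among members, 0.131, was also the lowest of all genes, and Serpina10 and Serpinb2 held ranks 2 and 5 of 12734 by p. Serpinb2 passed the filter only through its clamped arrays, so its rank is not independent of the filter. The same limit holds for Serpina6, also among the 12, whose highest values were those of clamped kidneys.

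The plasminogen activator inhibitor Serpinb2 had the highest fitted difference of the family. Serpinb2 encodes PAI-2, which blocks urokinase and tissue plasminogen activator and is kept mostly inside macrophages and epithelial cells. Its intensity was 46.1, 315 and 118 at 0, 45 and 60 min on day 3, and 31.7, 247 and 129 on day 1. The 2 control arrays were the lowest on either day, and the 45 min kidney stood above the 60 min kidney on either day, with no overlap between the 3 clamp times. Both 0 min values lie under 48.4, so the gene passed the filter through its clamped arrays, where it was higher. Its differences and ranks are therefore not independent of the filter. The clamped arrays exceeded 0 min by 1.90 ± 0.16 on the log2 scale (SE, limma, adjusted p = 0.131). The 45 min arrays exceeded 0 min by 2.44 ± 0.19 (SE, adjusted p = 0.566), which ranked first of all genes by p. The 60 min arrays were lower than the 45 min arrays, with a log2 difference of -1.08 ± 0.19 (SE, adjusted p = 0.306). On the scale of intensity plus 16, the 45 min kidneys were 5.33-fold above 0 min on day 3 and 5.51-fold on day 1, and the 60 min kidneys were 2.15-fold and 3.05-fold above it.

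The promoter of Serpinb2, the member with the highest fitted difference, is shown because it holds a STAT-type motif. Promoter windows of 300 bases, from 250 before to 50 after the start, came from RefSeq on build GRCm38.p6 and matched 16 of the 20 tested members with 18 windows. The motifs searched were TTCNNNGAA, which STAT factors recognise and which reads the same on both strands, and TGACTCA on either strand, the AP-1 site. The STAT-type letters lay in 3 of the 16 members' promoters (18.8%), those of Serpina1f, Serpinb2 and Serpinb6a, beside 9.55% of 27025 genes. The AP-1 letters lay in 2 of 16 (12.5%), those of Serpina1b and Serpinb8, beside 5.95% of genes, and the motifs did not overlap each other. A match describes letters only, and none of these windows was tested for binding. In the Serpinb2 window at chr1:107511173-107511472 on the plus strand of GRCm38.p6, capitals mark TTCNNNGAA at bases 261 to 269 of the window. For the other annotated start of Serpinb2, with the window chr1:107511260-107511559, the same letters lie before the start, at bases 174 to 182.
Serpinb2: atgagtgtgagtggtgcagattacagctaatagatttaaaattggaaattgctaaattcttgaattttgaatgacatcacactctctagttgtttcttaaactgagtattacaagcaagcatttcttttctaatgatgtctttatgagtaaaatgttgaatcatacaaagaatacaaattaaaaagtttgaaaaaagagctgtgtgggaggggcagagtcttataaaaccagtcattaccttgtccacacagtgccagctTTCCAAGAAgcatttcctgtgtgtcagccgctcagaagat

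Serpinf2, Serpinc1 and Serpind1, which inhibit plasmin and thrombin, differed by less than 2-fold from the controls on every clamped array. Serpinf2 encodes alpha-2-antiplasmin, the main inhibitor of plasmin in blood, and is also made in the kidney. Its intensity was 8364, 8162 and 4536 at 0, 45 and 60 min on day 3, and 5066, 5019 and 4396 on day 1. Both 60 min arrays lay below the other 4, while the 45 min kidneys stood at 0.98 and 0.99 times the same day's 0 min kidney on the scale of intensity plus 16. The 60 min arrays differed from 0 min by -0.54 ± 0.22 on the log2 scale (SE, limma, adjusted p = 0.249).

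Serpinc1 encodes antithrombin, the heparin-dependent inhibitor of thrombin and factor Xa. It read 134, 102 and 125 at 0, 45 and 60 min on day 3, and 113, 97.9 and 72.8 on day 1. Each clamped array was below the control of its day, but the 60 min day 3 kidney stood above the 0 min day 1 kidney. Serpind1, heparin cofactor II, which inhibits thrombin, read 84.6, 51.5 and 120 on day 3, and 82.3, 60.1 and 89.6 on day 1. Its 45 min kidneys were lowest and its 60 min kidneys highest on both days, and the 60 min arrays exceeded the 45 min arrays by 0.74 ± 0.19 on the log2 scale (SE, limma, adjusted p = 0.324). Serpina5, the protein C inhibitor, had an intensity under 16 on all 6 arrays.

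Serpina10 had the highest fitted 60 minus 0 min difference of the 20 tested members. It encodes the protein Z-dependent protease inhibitor, which inactivates clotting factors Xa and XIa and is made mainly by the liver. Its intensity was 215, 567 and 1185 at 0, 45 and 60 min on day 3, and 278, 659 and 1539 on day 1. The 3 clamp times did not overlap, and the order was the same on both days. The 60 min kidneys were 5.20-fold above 0 min on day 3 and 5.29-fold on day 1, on the scale of intensity plus 16. In the limma fit the 60 min arrays exceeded 0 min by 2.39 ± 0.15 on the log2 scale (SE, adjusted p = 0.0644), rank 2 of all genes by p. They exceeded the 45 min arrays by 1.12 ± 0.15 (SE, adjusted p = 0.306), and the clamped arrays exceeded 0 min by 1.83 ± 0.13 (SE, adjusted p = 0.131). Of 10 hepatocyte markers, 4 passed the filter, and the summed intensity of the list was 265 to 695 in clamped kidneys and 641 to 876 in 0 min kidneys. Of the 4 tested, 0 were higher and 2 lower in clamped kidneys at an unadjusted p under 0.05 from limma, beside 14.6% of all genes. Albumin (Alb) read 16.2 to 120 in clamped kidneys and 125 to 230 in 0 min kidneys, and Ahsg stayed at or under 35.2 on all 6 arrays. Cps1, below the filter like Ahsg, went the other way, at 29.0 to 37.2 in clamped and 7.39 to 14.7 in 0 min kidneys. The probe set used for Serpina10 is of a class that can match more than 1 transcript.

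Serpina3n, the antichymotrypsin-like member, also stood higher at each longer clamp. The mouse gene encodes an inhibitor of granzyme B and neutrophil elastase and is known as a target of STAT3 in inflamed tissue. Its intensity was 134, 196 and 433 at 0, 45 and 60 min on day 3, and 141, 228 and 346 on day 1. Both 60 min arrays lay above both 45 min arrays, which lay above both 0 min arrays. The 60 min arrays exceeded 0 min by 1.39 ± 0.18 on the log2 scale (SE, limma, adjusted p = 0.0740), and the 60 min kidneys were 3.00-fold above 0 min on day 3 and 2.30-fold on day 1. The Serpina3n promoter is shown because this gene was at least 2-fold higher in both 60 min kidneys. Its window at chr12:104406458-104406757 on the plus strand of GRCm38.p6 held neither motif.
Serpina3n: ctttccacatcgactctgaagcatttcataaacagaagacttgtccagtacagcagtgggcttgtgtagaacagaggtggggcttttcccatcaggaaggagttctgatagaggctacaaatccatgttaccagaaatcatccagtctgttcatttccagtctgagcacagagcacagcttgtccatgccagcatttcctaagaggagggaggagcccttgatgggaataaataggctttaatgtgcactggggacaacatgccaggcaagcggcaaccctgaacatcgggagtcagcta

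Serpina1f and Serpina1b, of the alpha-1-antitrypsin cluster, stood lowest at 60 min on both days. Alpha-1-antitrypsin blocks neutrophil elastase, and mice carry several near-identical copies whose probes can share transcripts. Serpina1f read 2527, 1224 and 396 at 0, 45 and 60 min on day 3, and 1754, 1811 and 935 on day 1. Both 60 min arrays lay below the other 4, and the 60 min day 3 kidney was the lowest of all, at 0.16 times its control on the scale of intensity plus 16. The clamped arrays differed from 0 min by -1.13 ± 0.36 on the log2 scale (SE, limma, adjusted p = 0.281), a value of -0.43 without the 0 min day 3 array and of -1.83 without the 0 min day 1 array. Serpina1b read 902, 1081 and 727 at 0, 45 and 60 min on day 3, and 1157, 738 and 594 on day 1. Its 60 min arrays were the lowest of their days, but the 45 min day 3 kidney stood above its control while the 45 min day 1 kidney stood below. The fitted difference of -0.41 ± 0.22 (SE, limma, adjusted p = 0.440) came to -0.02 without the 0 min day 1 array. Among proximal tubule markers, 0 of 8 were higher and 4 of 8 lower in clamped kidneys at an unadjusted p under 0.05 from limma, beside 14.6% of all genes. The summed intensity of these markers was 105051 to 177520 in clamped kidneys and 153783 to 177261 in 0 min kidneys, with the 2 lowest sums at 60 min. In RNA from whole kidney, fewer cells of a type and less RNA per cell cannot be told apart, and the part of the markers in the result was not tested.

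Serpina6, corticosteroid-binding globulin, carries glucocorticoids in blood and inhibits no protease. It read 15.8, 35.6 and 40.0 at 0, 45 and 60 min on day 3, and 56.3, 326 and 116 on day 1. The 45 min day 1 kidney stood far above the other 5 arrays, and each day 3 value lay below the day 1 value at the same clamp time. All 3 day 3 values lie under 48.4, so the gene passed the filter through its day 1 arrays, where it was higher. Its highest values, 326 and 116, were those of clamped kidneys, so its clamped minus 0 min difference is not independent of the filter either. Clamped arrays exceeded 0 min by 1.16 ± 0.36 (SE, limma, adjusted p = 0.277), and by 0.76 without the 0 min day 1 array.

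Of the intracellular clade b serpins, most of those in the chromosome 13 cluster stood highest at 60 min on both days. Chromosomes are those of GRCm38.p6 in RefSeq, where Serpinb1a, Serpinb6a, Serpinb6b, Serpinb6e, Serpinb9 and Serpinb9b lie on chromosome 13, and Serpinb2 and Serpinb8 on chromosome 1. Of the 6 tested on chromosome 13, 5 were higher at 60 than at 45 min on both days, against 0 of 2 on chromosome 1 and beside 35.4% of all genes tested, and the split by chromosome was not tested. Among the 5, the dimmer probe set of Serpinb1a was lower at 60 than at 45 min on day 1. The dimmer set of Serpinb9 was higher at 60 min on both days. Serpinb6e, the exception on chromosome 13, is a copy whose probe set can match near-identical transcripts, and it read 126 to 253 in clamped kidneys and 160 to 192 in 0 min kidneys, with full overlap.

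Serpinb6a, an inhibitor of cathepsin G, read 1027, 1222 and 2963 at 0, 45 and 60 min on day 3, and 1141, 1427 and 2129 on day 1. Its paralogue Serpinb6b read 604, 830 and 1642 on day 3, and 599, 690 and 1079 on day 1. In both genes the 60 min arrays lay above the other 4, and both 45 min arrays lay above both controls. The 60 min arrays exceeded 0 min by 1.20 ± 0.22 on the log2 scale for Serpinb6a (SE, limma, adjusted p = 0.0948) and by 1.13 ± 0.19 for Serpinb6b (SE, limma, adjusted p = 0.0899). The Serpinb6a and Serpinb8 promoters are shown because each holds a motif at 2 places, and they were chosen after the matches were seen. The Serpinb6a window at chr13:34002745-34003044 on the minus strand of GRCm38.p6 has TTCNNNGAA at bases 174 to 182 and 271 to 279, in capitals, while the window of the gene's other start, chr13:33936034-33936333, held neither motif. The Serpinb8 window at chr1:107589756-107590055 on the plus strand has TGAGTCA, the AP-1 letters as read on this strand from the opposite one, at bases 228 to 234 and 264 to 270, in capitals.
Serpinb6a: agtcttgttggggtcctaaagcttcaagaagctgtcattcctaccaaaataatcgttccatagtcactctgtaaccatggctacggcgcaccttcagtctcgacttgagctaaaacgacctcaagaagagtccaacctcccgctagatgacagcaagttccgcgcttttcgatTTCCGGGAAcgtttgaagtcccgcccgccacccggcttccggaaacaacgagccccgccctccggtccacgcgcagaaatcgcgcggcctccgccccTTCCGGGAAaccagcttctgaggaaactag
Serpinb8: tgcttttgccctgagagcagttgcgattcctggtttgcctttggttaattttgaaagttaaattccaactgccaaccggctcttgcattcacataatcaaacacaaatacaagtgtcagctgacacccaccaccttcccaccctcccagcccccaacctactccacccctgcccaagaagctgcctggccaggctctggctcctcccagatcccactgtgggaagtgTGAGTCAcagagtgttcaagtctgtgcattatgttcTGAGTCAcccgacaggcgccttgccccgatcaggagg

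Serpinb9, the inhibitor of granzyme B that shields cells from cytotoxic granules, also stood highest at 60 min on both days. Its intensity was 883, 1109 and 2614 at 0, 45 and 60 min on day 3, and 798, 888 and 1347 on day 1. Both 60 min arrays lay above the other 4, and the 60 min day 3 kidney was 2.93-fold above its control on the scale of intensity plus 16. Its mouse paralogue Serpinb9b read 56.9, 62.0 and 281 on day 3, and 73.6, 55.7 and 142 on day 1. The 60 min arrays stood apart, while the 45 min and 0 min arrays overlapped. The 60 min arrays exceeded the 45 min arrays by 1.53 ± 0.31 on the log2 scale for Serpinb9b (SE, limma, adjusted p = 0.306) and by 0.91 ± 0.24 for Serpinb9 (SE, limma, adjusted p = 0.333). Granzyme transcripts did not reach the filter, since Gzma read 31.6 to 66.6 and Gzmb 5.29 to 28.0 over the 6 arrays.

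Serpinb1a inhibits neutrophil elastase, cathepsin G and proteinase 3. Its intensity was 319, 334 and 525 at 0, 45 and 60 min on day 3, and 155, 389 and 484 on day 1. The 0 min day 1 kidney was the lowest array, and on day 3 the 45 min kidney was close to its control. A dimmer probe set of the gene read 143, 116 and 117 on day 3, and 94.1, 148 and 136 on day 1, so the sets disagreed on the direction at day 3. The clamped arrays exceeded 0 min by 0.89 ± 0.26 on the log2 scale with the brighter set (SE, limma, adjusted p = 0.266) and by 0.51 with the mean of the sets. With the brighter set it was 0.38 without the 0 min day 1 array. The proteases that Serpinb1a blocks, Elane, Ctsg and Prtn3, read at most 38.3 on any array and did not pass the filter.

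Serpinb8, which inhibits furin and trypsin-like proteases, read 129, 382 and 383 at 0, 45 and 60 min on day 3, and 157, 272 and 210 on day 1. All 4 clamped arrays lay above both controls, and the day 3 kidneys showed the wider gap. The clamped arrays exceeded 0 min by 1.01 ± 0.24 on the log2 scale (SE, limma, adjusted p = 0.222), and by 0.56 without the 0 min day 3 array. A second probe set read 235 in the 60 min and 223 in the 45 min kidney of day 3, against 166 in the 0 min kidney of that day, and gave log2 differences of -0.16 and 0.56 for 60 and 45 min against 0 min on day 1.

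Marker lists of leukocytes were read beside the clade b values. The summed intensity of 9 monocyte and macrophage markers was 9989, 14215 and 34431 at 0, 45 and 60 min on day 3, and 6014, 9567 and 9600 on day 1. In clamped kidneys 4 of 9 were higher at an unadjusted p under 0.05 from limma, beside 14.6% of all genes in either direction. None of these 9 was below the filter. For neutrophils, 4 of 7 measured markers passed the filter and the sum was 1110 to 1619 in clamped kidneys and 986 to 1060 in 0 min kidneys, with Mpo at or under 31.9 on every array. Summed T and NK cell markers were 315 to 457 in clamped kidneys and 371 to 430 in 0 min kidneys, with Cd3e at or under 53.4. Of these, 3 of 9 passed the filter, with 0 higher and 1 lower at an unadjusted p under 0.05 from limma. The part of these leukocyte markers in the clade b values was not tested.

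Serpinh1 had the highest fitted difference among the tested members of clades c to i. It encodes HSP47, the chaperone of the endoplasmic reticulum that procollagen needs in order to fold. Its intensity was 2331, 4096 and 4381 at 0, 45 and 60 min on day 3, and 1782, 3106 and 4152 on day 1. All 4 clamped arrays lay above both controls, with the 2 highest at 60 min. The clamped arrays exceeded 0 min by 0.93 ± 0.14 on the log2 scale (SE, limma, adjusted p = 0.165). A second probe set agreed in direction on all 4 clamped arrays, reading 2251, 3319 and 4422 on day 3, and 1667, 2601 and 3278 on day 1.

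The collagens that HSP47 serves stood higher beside it. Of 15 collagen and collagen-processing genes tested, 8 were higher and 0 lower in clamped kidneys at an unadjusted p under 0.05 from limma. Of all genes, 14.6% passed that threshold in either direction. The median log2 difference of the 15 was 0.83, and 0 were called after adjustment. Col3a1 read 5818, 11019 and 18832 at 0, 45 and 60 min on day 3, and 1675, 11604 and 10405 on day 1, which gave a log2 difference of 2.00 ± 0.38 (SE, limma, adjusted p = 0.190). Ppib, a folding enzyme of the same compartment, differed by -0.07 ± 0.12 (SE, limma, adjusted p = 0.819). The 7 fibroblast and pericyte markers, which include Col1a1, had a summed intensity of 14104 to 24411 in clamped kidneys and 8332 to 9898 in 0 min kidneys. Of these, 4 of 7 were higher at an unadjusted p under 0.05 from limma, beside 14.6% of all genes in either direction. All 7 passed the filter, and their part in the Serpinh1 values was not tested.

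Serping1 encodes C1 inhibitor, which blocks the C1r and C1s proteases of complement and the kallikrein of the contact system. Its intensity was 5724, 7743 and 8944 at 0, 45 and 60 min on day 3, and 4450, 7139 and 5418 on day 1. Each clamped array exceeded its own day's control, but the 60 min day 1 kidney lay below the 0 min day 3 kidney. The clamped arrays exceeded 0 min by 0.51 ± 0.17 on the log2 scale (SE, limma, adjusted p = 0.293). Among 8 tested contact system and C1 genes, 3 were higher and 2 lower at an unadjusted p under 0.05 from limma, with a median of 0.56. Of all genes, 14.6% passed that threshold in either direction. Of the C1 genes, C1qc differed by 0.95 ± 0.27 (SE, limma, adjusted p = 0.255) and the target protease gene C1ra by 0.79 ± 0.29 (SE, limma, adjusted p = 0.321). The 2 lower genes were Masp2, at -0.89 ± 0.21 (SE, limma, adjusted p = 0.217), and Kng1.

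Serpinf1 was higher on day 3 than on day 1 at every clamp time. It encodes pigment epithelium-derived factor, a secreted serpin without protease inhibition that restrains vessel growth. Its intensity was 200.2, 234 and 423 at 0, 45 and 60 min on day 3, and 87.4, 154 and 109 on day 1. Every day 3 array lay above every day 1 array. Over the 3 clamp times day 3 exceeded day 1 by 1.14 ± 0.26 on the log2 scale (SE, limma, adjusted p = 0.479). A dimmer second probe set read 85.7, 51.0 and 187 on day 3, and 32.1, 27.4 and 22.8 on day 1, again with day 3 above day 1 throughout. On that set the 45 min kidneys of both days and the 60 min day 1 kidney were below their controls.

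Serpini1, neuroserpin, is an inhibitor of tissue plasminogen activator known from neurons. It read 124, 129 and 129 at 0, 45 and 60 min on day 3, and 99.5, 120 and 131 on day 1. The spread was narrow, and the fitted clamped minus 0 min difference was 0.17 ± 0.14 on the log2 scale (SE, limma, adjusted p = 0.589).

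**Figure D2:**
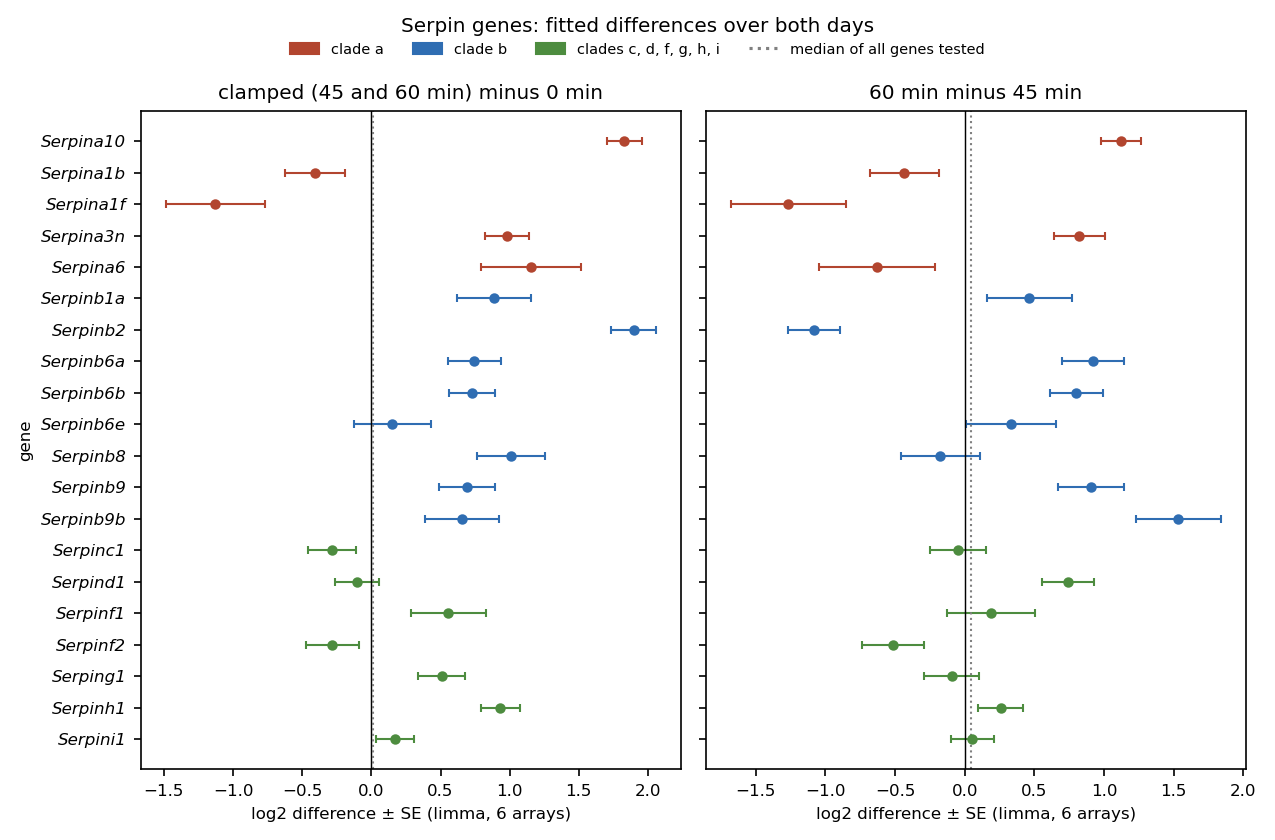
Fitted log2 differences with SE (horizontal axis) of the 20 tested serpins (vertical axis) from the limma fit to 6 arrays, for clamped minus 0 min at left and for 60 minus 45 min at right, coloured by clade, with the median of all genes as a dotted line. Serpinb2 has the highest value at left, 1.90, and at right stands at -1.08, while Serpinb9b has the highest value at right, 1.53.

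By clade, the median fitted difference of clamped minus 0 min was 0.98 over the 5 tested clade a genes, 0.73 over the 8 of clade b and 0.17 over the 7 of the other clades. For 60 minus 0 min the clade medians were 0.84, 1.14 and 0.27 in the same order, beside 0.88 over the 20 members and 0.03 over all genes. For 45 minus 0 min they were 0.57, 0.30 and 0.14, beside 0.30 over the members and -0.01 over all genes. For 60 minus 45 min they were -0.43, 0.63 and 0.05, beside 0.22 over the members and 0.05 over all genes. For day 3 minus day 1 they were -0.31, 0.27 and 0.32, beside 0.22 over the members and -0.02 over all genes. For clamped minus 0 min, clade a ran from Serpina10 at 1.83 to Serpina1f at -1.13, the widest range of the 3 groups in that contrast. The difference between clades was not tested, and the members that passed the filter did so on a mean over all 6 arrays.

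The 60 minus 0 min contrast gave 0 members and 0 genes (0%) at an adjusted p under 0.05, and 11 of 20 members at an unadjusted p under 0.05, 10 higher and 1 lower, beside 21.4% of all genes. The 45 minus 0 min contrast likewise called 0 members and 0 genes (0%) after adjustment, with 7 of 20 members at an unadjusted p under 0.05, all higher, beside 5.81% of all genes. These 7 were Serpina10, Serpina3n, Serpina6, Serpinb2, Serpinb8, Serping1 and Serpinh1. The values of Serpina6 and Serpinb2 are not independent of the filter, as given above. Both contrasts use the same 0 min arrays, so their values are not independent.

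**Figure D3:**
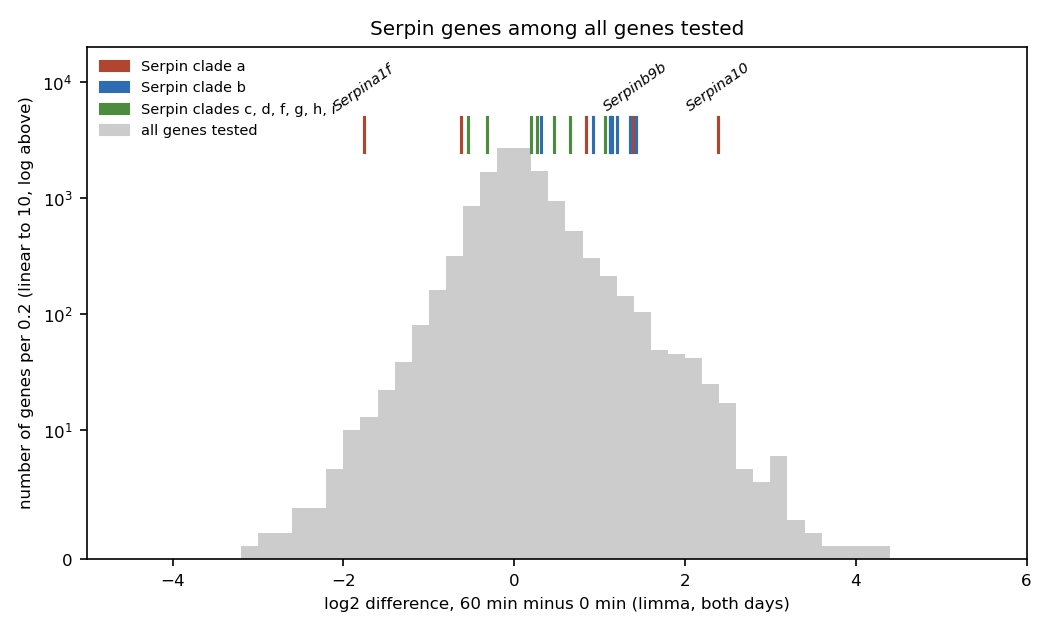
Number of genes per 0.2 of log2 difference (vertical axis, linear to 10 and log above) against the fitted 60 minus 0 min difference (horizontal axis), with coloured ticks for the 20 tested serpins by clade and grey bars for all 12734 genes. The serpin ticks run from -1.76 for Serpina1f to 2.39 for Serpina10, and their median is 0.88 where that of all genes is 0.03.

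Single arrays showed where the larger differences lay, without a test. On day 3 the 60 min kidney was at least 2-fold above the 0 min kidney for 9 members, 6 of them in clade b, beside 7.58% of all genes, and at least 2-fold below it for 1, Serpina1f, beside 2.32%. The 45 min kidney of day 3 was 2-fold above 0 min for 3 members, Serpina10, Serpinb2 and Serpinb8, beside 1.5% of all genes, and below it for Serpina1f, beside 0.785%. On day 1 the 60 min kidney was 2-fold above 0 min for 5 members, Serpina10, Serpina3n, Serpinb1a, Serpinb2 and Serpinh1, beside 4.39% of all genes, and below it for 0, beside 1.71%. At 45 min on day 1 the higher members were 4, Serpina10, Serpina6, Serpinb1a and Serpinb2, beside 3.57% of all genes, and the lower ones 0, beside 1.06%. Serpina10 and Serpinb2 were the members that passed 2-fold in all 4 comparisons, which share the control array of each day.

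**Figure D4:**
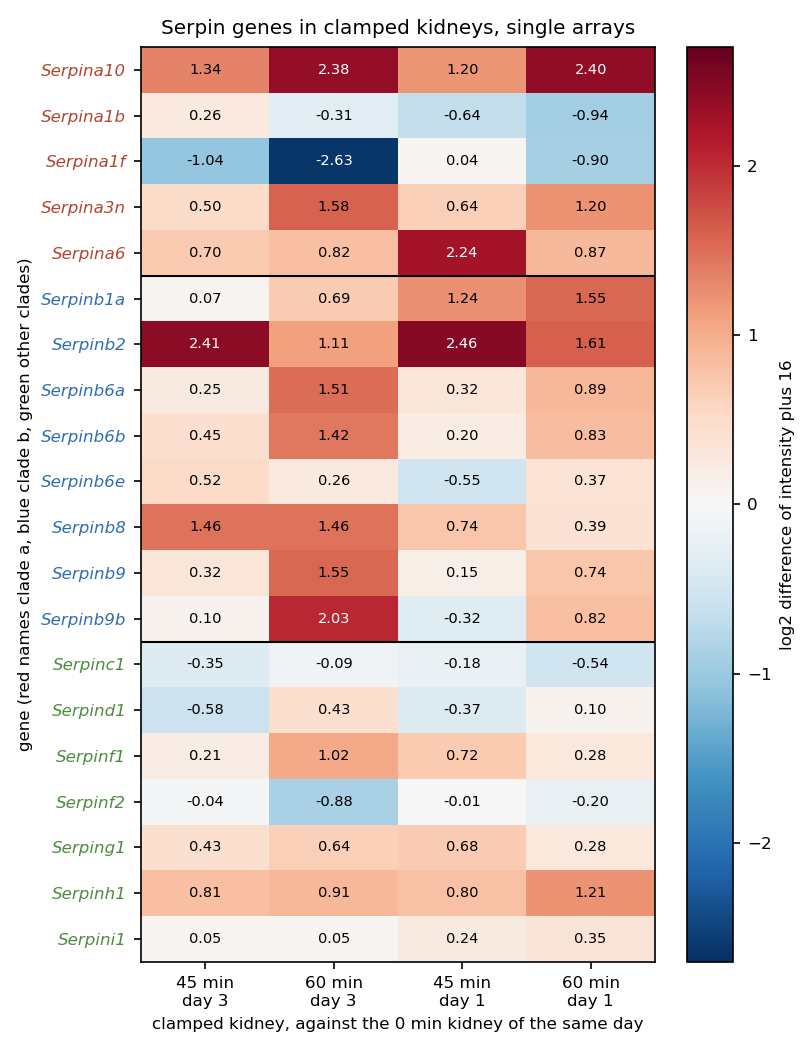
Difference of log2 of intensity plus 16 between each clamped array and the 0 min array of the same day (colour and printed value) for the 20 tested serpins (rows) on 4 clamped arrays (columns). Serpina10 is at 1.20 or above in all 4 columns, the chromosome 13 genes of clade b are higher at 60 than at 45 min except Serpinb6e on day 3, and Serpina1f reaches -2.63 at 60 min on day 3.

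The longer clamp was set against the shorter without the controls. In the limma fit 0 members and 0 genes (0%) passed an adjusted p under 0.05 for 60 minus 45 min. At an unadjusted p under 0.05, 9 of 20 members passed, beside 1661 of 12734 genes. The 7 higher at 60 min were Serpina10, Serpina3n, Serpinb6a, Serpinb6b, Serpinb9, Serpinb9b and Serpind1, and the 2 lower were Serpina1f and Serpinb2. Both 60 min arrays lay above the other 4 for 10 members, beside 18% of all genes, and below them for Serpina1b, Serpina1f and Serpinf2, beside 13.2%. On their dimmer probe sets Serpinb1a, Serpinh1 and Serpini1, all among the 10, did not show this separation, while Serpinb9 did. Serpini1 held it narrowly on the set used, with 128.652 at 60 min and 128.547 at 45 min on day 3. Array against array, the 60 min kidney was 2-fold above the 45 min kidney for 6 members on day 3, beside 5.96% of all genes, and for 2 on day 1, Serpina10 and Serpinb9b, beside 1.02%. It was 2-fold below for Serpina1f and Serpinb2 on day 3, beside 2.4% of all genes, and for Serpina6 on day 1, beside 0.982%.

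Fewer serpins differed between the days than between clamped and 0 min kidneys by these counts. Day 3 minus day 1 gave 0 members and 0 genes (0%) at an adjusted p under 0.05 with limma, and 4 of 20 members at an unadjusted p under 0.05, beside 9.05% of all genes. By sign alone, 17 of 20 members were higher on day 3, beside 46.0% of all genes, with a member median of 0.22. For clamped minus 0 min 15 of 20 were higher, beside 51.5% of all genes. The Gapdh control ratio separates the days as given above, and its part in these values was not tested. Serpinf1 and Serpinf2 were higher on day 3, Serpinf2 by 0.49 ± 0.18 on the log2 scale (SE, limma, adjusted p = 0.544). Serpina6, which passed the filter through its day 1 arrays, and Serpina10 were lower on day 3, Serpina10 with a difference of -0.31 ± 0.12 (SE, limma, adjusted p = 0.551). At 60 min, day 3 was 2-fold above day 1 for Serpinf1, beside 3.01% of all genes, and 2-fold below for Serpina1f and Serpina6, beside 1.09%. At 45 min, 0 members were 2-fold higher on day 3, beside 1.19% of all genes, and Serpina6 was lower, beside 2.06%. At 0 min, Serpinf1 was 2-fold higher on day 3, beside 1.71% of all genes, and Serpina6 was lower, beside 1.4%.

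The 20 serpins below the filter had intensities from 0.0903 to 69.6 over all arrays. Their highest single value, 69.6, was that of Serpina3a, and 16 of the 20 never exceeded 48.4 on any array. Serpina5, Serpina11, Serpinb7 and Serpinb9d stayed under 16 on all 6 arrays. Clade b held 10 of the 20, with the epithelial tumour suppressor maspin, Serpinb5, reaching 62.5, and clade a held 9. Serpini2 read 9.72 to 23.8. Differences between arrays at these levels were not tested.

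The proteases and cofactors that serpins act on were followed in lists drawn up from textbook roles. Of 11 tested fibrinolysis genes, 8 were higher and 1 lower in clamped kidneys at an unadjusted p under 0.05 from limma, beside 14.6% of all genes in either direction. Their median log2 difference was 0.79, and 0 were called after adjustment. Plat, the tissue plasminogen activator that Serpinb2 inhibits, read 1287, 1931 and 4403 at 0, 45 and 60 min on day 3, and 1461, 1772 and 2604 on day 1. Plaur, the urokinase receptor, exceeded 0 min by 1.09 ± 0.14 on the log2 scale (SE, limma, adjusted p = 0.151), and Anxa2, a plasminogen receptor, by 1.25 ± 0.15 (SE, limma, adjusted p = 0.151). Fgb, a fibrinogen chain, exceeded it by 1.66 ± 0.46 (SE, limma, adjusted p = 0.249). Plasminogen itself, Plg, read 6.47 to 53.0 and did not pass the filter.

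Of 10 tested clotting factors and thrombin receptors, 3 were higher and 2 lower at an unadjusted p under 0.05 from limma, with a median of 0.52. Of all genes, 14.6% passed that threshold in either direction. F3, the tissue factor that starts clotting, read 649, 1002 and 2394 at 0, 45 and 60 min on day 3, and 875, 947 and 1544 on day 1. Proc, protein C, differed by -0.74 ± 0.22 on the log2 scale (SE, limma, adjusted p = 0.263). F10, the factor whose active form Serpina10 inhibits, read 2.17 to 83.8 and did not pass the filter.

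Of 7 tested cathepsin, caspase and perforin genes, 3 were higher and 0 lower at an unadjusted p under 0.05 from limma, beside 14.6% of all genes in either direction. Their median was 0.33. The 3 were Ctsk, Casp1 and Ctsb. The leukocyte serine proteases of the same list, Elane, Ctsg, Prtn3, Gzma, Gzmb and Gzmk, did not pass the filter. The highest difference was that of Ctsk, cathepsin K, at 0.74 ± 0.24 on the log2 scale (SE, limma, adjusted p = 0.283). Protease inhibitors outside the serpin family gave a median of 0.19 over 17 tested genes, with 2 higher and 1 lower at an unadjusted p under 0.05 from limma. That is near the 14.6% of all genes, so the count does not set this list apart. The metalloprotease inhibitor Timp1 read 281, 573 and 1339 at 0, 45 and 60 min on day 3, and 159, 785 and 1368 on day 1. The secreted elastase inhibitor Slpi exceeded 0 min by 1.10 ± 0.24 on the log2 scale (SE, limma, adjusted p = 0.210).

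Genes of signalling responses that are known to regulate serpins were followed as well. Of 13 tested acute phase and STAT3 genes, 6 were higher and 0 lower at an unadjusted p under 0.05 from limma, with a median of 0.46. Of all genes, 14.6% passed that threshold in either direction. Socs3, the feedback inhibitor of STAT3 signalling, read 286, 972 and 2058 at 0, 45 and 60 min on day 3, and 291, 634 and 1536 on day 1. Of 12 TGF-beta and SMAD genes, 6 were higher and 0 lower, with a median of 0.66, beside the same 14.6% of all genes. Thbs1, which activates latent TGF-beta, exceeded 0 min by 1.10 ± 0.18 on the log2 scale (SE, limma, adjusted p = 0.169). After adjustment 0 genes of either list were called. Tubular injury markers had a summed intensity of 11345 to 40909 in clamped kidneys and 6612 to 7089 in 0 min kidneys. Of these, 7 of 8 passed the filter and all 7 were higher at an unadjusted p under 0.05 from limma, beside 14.6% of all genes. Their part in the serpin values was not tested.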

How the data were processed

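Per the labels' protocols, Trizol was used to isolate total RNA, and a 3' IVT kit turned it into biotinylated cRNA for hybridisation. The authors deposited 1 intensity on a linear scale for each probe set of each array, with Affymetrix Expression Console named per the submitters' processing notes. Neither the tool's version nor its summary algorithm is given in the sources used here. Without the lowest and highest 2% of probe sets the mean was 500.003 on every array, so the deposited intensities share a target level, and a shift of many bright genes would move all others.

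The 45101 probe sets comprised 64 controls, 34945 with 1 symbol, 932 with several and 9160 with none, and only sets with 1 symbol entered the tests. All 40 members matched the RefSeq gene table, which altered 0 symbols. Each gene's set of highest mean intensity was taken as log2 of intensity plus 16, which shrinks differences of dim genes, and genes at or above the 40th percentile were tested. The fit of clamp time plus day used limma 3.58.1 in R 4.3.3 over 12734 genes with Benjamini-Hochberg adjustment. It was run on simulated data with the same shift in all clamped arrays and independent noise. That check does not cover departures from additivity in the real arrays. Single arrays were compared by size at 2-fold. The number of arrays limits the precision, and p-values rest on departure from additivity, not on replicates. Genes given with values were fixed by name or were at least 2-fold from the control in a clamped array. Genes named as below the filter, and Ppib, were chosen after their values were seen. The members and lists were chosen with earlier results of these data known.

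Alternatives changed normalization, the added constant, the filter, the choice of probe set, the variance trend, the day term and the coding of clamping, and left out each array in turn. Protein sequences and 4 promoters were not used here.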

Additional observations from a re-analysis of the deposited data

Results flagged for a closer look

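In 4 of the 20 tested serpins the 2 clamped arrays moved one way between day 1 and day 3 and the control array the opposite way. This is near the share over all genes tested, 21.9%, so the count does not set the serpins apart, and the difference was not tested. For Serpina1f the day 3 minus day 1 difference of log2 intensity plus 16 was -1.21 at 60 min, -0.56 at 45 min and 0.52 at 0 min, so the clamped mean minus 0 min was -1.41. Serpinb8 had 0.82, 0.47 and -0.25, a clamped mean minus 0 min of 0.89. Serpinb9b had 0.91, 0.12 and -0.30, a clamped mean minus 0 min of 0.81. Serpina1b had 0.28, 0.54 and -0.35, a clamped mean minus 0 min of 0.77. In 0 of the 20 members did both clamped arrays lie above the control on one day and both below it on the other, beside 14.1% of all genes. No group had the 4 arrays that a search for outlying samples needs.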

How the results depend on the processing

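Calls among the serpins depended on the fit. Clamped against 0 min, with 0 members called, gave 1 (Serpina10, of 6 genes in all) with median centring, 3 (Serpina10, Serpinb2 and Serpinh1, of 75) with a robust variance trend, and 0 to 3 when each array was left out in turn, the 3 (Serpina10, Serpina6 and Serpinb2, of 200) without the 45 min day 3 array. For 60 against 0 min, also with 0, median centring gave 2 of 200 genes, an added constant of 64 gave 4 of 277, a filter at the 60th percentile 3 of 202, the mean of probe sets 1 of 20, the robust trend 7 of 615 and no day term 1 of 42. Leaving out arrays gave 0 to 3, with 3 without either 45 min array. The other 3 contrasts gave 0 members throughout.

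No filter tested 40 members and a filter at the 60th percentile 14, in place of 20, so counts under these settings cover other sets of genes. Among single-array 2-fold counts, no filter gave 8 members in place of 5 higher and 5 in place of 0 lower for 60 against 0 min on day 1, and 7 in place of 4 higher and 2 in place of 0 lower for 45 against 0 min on day 1. The added higher members were all below the main filter, and 4.94% and 4.08% of all genes were then higher in these comparisons. It gave 2 in place of 1 lower for 60 against 0 min on day 3, 2 in place of 1 lower for 60 against 45 min on day 1, 2 in place of 1 higher for day 3 against day 1 at 60 min, 3 in place of 1 both higher and lower at 0 min, and 6 in place of 3 with both 60 min arrays below the others. The 60th percentile gave 2 of 4 higher for 45 against 0 min on day 1, 1 of 2 higher and 0 of 1 lower for 60 against 45 min on day 1, 1 of 2 lower for it on day 3, and for day 3 against day 1 1 of 2 lower at 60 min, 0 of 1 at 45 min and 0 of 1 at 0 min. For 60 against 45 min on day 3, quantile normalization, median centring and a constant of 64 each gave 3 in place of 6 higher. A constant of 64 also gave 1 of 2 higher for 60 against 45 min on day 1, 1 of 2 lower for day 3 against day 1 at 60 min, and 0 of 1 higher and 0 of 1 lower at 0 min, where quantile normalization, median centring and a constant of 1 gave 2 higher. Quantile normalization gave 0 of 1 lower for 45 against 0 min on day 3 and 1 in place of 0 lower for 60 against 0 min on day 1. Median centring gave 2 in place of 1 lower for 60 against 0 min on day 3 and 1 in place of 0 with all clamped arrays below both controls. It moved the median of all genes for 60 against 0 min on day 3 to -0.15, beside 0.04 as deposited.

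Of the other values for single members, 626 kept their direction and side of the threshold, 7 passed it and 15 changed sign without a call. Leaving out arrays moved the clamped minus 0 min log2 difference over -0.13 to 0.43 for Serpinb6e and -0.21 to 0.0061 for Serpind1. It moved the 60 minus 45 min difference over -1.39 to 0.13 for Serpina6, -0.23 to 0.89 for Serpinb6e, -0.53 to 0.18 for Serpinb8, -0.32 to 0.22 for Serpinc1, -0.31 to 0.69 for Serpinf1, -0.34 to 0.15 for Serping1 and -0.047 to 0.16 for Serpini1, and quantile normalization gave 0.011 for Serping1. The cause was not tested. No paired analysis by replicate number was possible because each group has 1 array, and the day term already sets the clamp times against each other within a day.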

Other observations

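Probe sets that the annotation assigns to several serpins were not used for genes. One shared by Serpina1d and Serpina1a read 91.7 at 60 min, 208 at 45 min and 86.7 at 0 min on day 3, and 130 at 60 min, 127 at 45 min and 192 at 0 min on day 1. The set shared by Serpina1e, Serpina1c and Serpina1b stayed at or under 28.2 on all arrays, and that shared by Serpinb9h, Serpinb9g, Serpinb9e and Serpinb9f at or under 31.1.

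Endothelial markers had a summed intensity of 7826 to 9079 in clamped kidneys and 8075 to 8097 in 0 min kidneys, with 7 of 7 above the filter. Distal nephron markers had 46936 to 99284 in clamped kidneys and 93925 to 97908 in 0 min kidneys, with the 2 lowest sums at 60 min. Of these, 4 of 6 were lower at an unadjusted p under 0.05 from limma, beside 14.6% of all genes in either direction. All 6 mast cell and basophil markers were below the filter.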
